A study of Mus musculus with 16 samples.

Results

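The FoxO transcription factors and the ubiquitin ligase machinery of muscle wasting were followed through C2C12 differentiation, with and without Fam134b. The set holds the FoxO factors Foxo1, Foxo3 and Foxo4, the F-box ligase genes Fbxo32 (atrogin-1) and Fbxo30 (MUSA1), the 3 MuRF ligase genes Trim63 (MuRF1), Trim55 (MuRF2) and Trim54 (MuRF3), and the transcription factor gene Klf15. Members were taken by gene symbol alone, and each symbol matched 1 row, giving 9 of the 31053 genes in the table. Of these 9, 8 were tested, and Klf15 stayed below the limit for testing, a normalized count of 10 in at least 4 of the 16 samples.

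C2C12 is a mouse myoblast line whose cells fuse into multinucleated myotubes when they become confluent. Poly(A) RNA was read from its 3′ ends in 4 groups of 4 samples, namely wild-type (WT) myoblasts, WT myotubes, Fam134b knockout (KO) myoblasts and Fam134b KO myotubes. Fam134b is a receptor for the selective autophagy of the endoplasmic reticulum, and the KO line was made with lentiviral CRISPR-Cas9 and drug selection. Myotubes formed at confluency in the growth medium, and whether the KO line is a single clone is not given in the sources used here. Genotype and cell line go together in these samples. Loss of Fam134b therefore cannot be told apart from other differences between the lines.

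FoxO proteins are transcription factors that insulin and IGF signalling keeps out of the nucleus through AKT. In fasted, denervated or unloaded muscle they enter the nucleus and raise the genes of atrogin-1 and MuRF1, E3 ubiquitin ligases that mark muscle proteins for the proteasome. MuRF1, MuRF2 and MuRF3 also bind titin, microtubules and other parts of the sarcomere, and their genes are muscle-enriched. MUSA1 is the F-box ligase restrained by BMP signalling, and KLF15 is a glucocorticoid-induced factor of amino acid catabolism that also acts on the ligase genes.

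The samples held 1484750 to 3287461 reads on genes. The shallowest were KO myotube replicates 4 and 2, with 1484750 and 1790524 reads, and calls that change when both are left out are given beside the member. Fam134b ranged over 149.7 to 250.8 normalized counts before and 145.7 to 286.6 after differentiation of WT cells, against 23.4 to 35.6 in KO myoblasts and 28.0 to 56.9 in KO myotubes, so the mRNA was lower in every KO sample and was still detected. The 8 muscle differentiation markers gave sums of 1940.1 to 2905 normalized counts in WT and 124 to 189 in KO myoblasts, and of 23636 to 35505 in WT and 10807 to 14607 in KO myotubes. Their defining member Myog, the myogenin gene, averaged 114 ± 24.3 (SD, n = 4) in WT myoblasts and had no read in any KO myoblast sample. The 5 proliferation markers gave sums of 3532 to 4245 normalized counts in WT and 2814 to 4756 in KO myoblasts. In myotubes their sums were 1901 to 3100 in WT and 836 to 1406 in KO samples. Of the 5, 4 were called lower in KO than in WT myotubes, where 13.7% of all genes were lower. None of them was called between KO and WT myoblasts. The part of proliferation in the differences of the members was not tested. In bulk RNA, fewer cells of a type and less RNA per cell cannot be told apart. The macrophage genes Ptprc and Adgre1 and the endothelial genes Cdh5 and Tek had no read in any sample, and the 4 genes of each of those lists summed to at most 24.2 and 1.94 normalized counts. The 5 chondrocyte or osteoblast markers gave sums of 438 to 495 in WT and 658 to 1103 in KO myoblasts, and of 295 to 491 in WT and 381 to 885 in KO myotubes, mostly from Sox9, which was higher in the KO line by 0.89 in myoblasts and 0.84 in myotubes on the log2 scale (limma adjusted p = 0.00943 and 0.0122). Runx2, the only other tested marker of that list, was not called between KO and WT at either stage. The median log2 difference of the 2 was 0.24 in myoblasts and 0.28 in myotubes, so Runx2 lay lower in the KO line. The part of the chondrocyte or osteoblast markers in the differences of the members was not tested.

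The members lie on separate stretches of the mouse genome (GRCm38, GENCODE M21), all as protein-coding genes. Foxo1 is at chr3:52268336-52353221 on the plus strand, Foxo3 at chr10:42181841-42276755 on the minus strand and Foxo4 at chrX:101254528-101260873 on the plus strand. Fbxo32 is at chr15:58175879-58214932 on the minus strand and Fbxo30 at chr10:11281330-11298052 on the plus strand. Trim63 is at chr4:134315120-134329629, Trim55 at chr3:19644474-19692421, Trim54 at chr5:31116712-31137630 and Klf15 at chr6:90462576-90475238, all on the plus strand. Foxo1, Fbxo32 and Trim54 overlap the antisense genes Gm20402, Gm15943 and Gm15469. Foxo1 also overlaps Gm38034, and Trim55 overlaps BC002189, on their own strands. Whether reads were counted by strand is not given in the sources used here, so reads of an overlapping gene cannot be told apart from those of the member. Of the 31-base stretches in the last 500 bases of Foxo1 transcripts, 12.6% also occur at any position in transcripts of other genes. The share was 1.04% for Trim63, 0.34% for Foxo3 and 0 for the other 6 members.

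Trim63 and Trim54 were the members called in all 4 pairwise comparisons described here, and the 250 bases before their start sites are shown for their E-boxes, the motif bound by MyoD and myogenin, and their FoxO motifs. The sequences are from RefSeq (GRCm38.p6), on the plus strand, at chr4:134314870-134315119 for Trim63 and chr5:31116362-31116611 for Trim54. Capitals mark the E-box CANNTG and the FoxO motif GTAAACA, both searched on both strands.
Trim63: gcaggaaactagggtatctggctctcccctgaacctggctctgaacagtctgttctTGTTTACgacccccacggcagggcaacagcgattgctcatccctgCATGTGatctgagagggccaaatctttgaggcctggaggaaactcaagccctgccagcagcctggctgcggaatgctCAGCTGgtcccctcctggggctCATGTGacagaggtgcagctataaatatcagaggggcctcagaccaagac
Trim54: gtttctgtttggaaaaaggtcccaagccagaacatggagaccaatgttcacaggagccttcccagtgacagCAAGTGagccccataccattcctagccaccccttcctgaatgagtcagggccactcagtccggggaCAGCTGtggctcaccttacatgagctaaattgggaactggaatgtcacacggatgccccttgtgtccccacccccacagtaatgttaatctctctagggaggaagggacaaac
The Trim63 stretch holds 1 FoxO motif, read here on the other strand as TGTTTAC, with its first base at -194 from the start site, and 3 E-boxes at -149, -72 and -50. The Trim54 stretch holds 2 E-boxes, at -179 and -113, and no GTAAACA on either strand. The Trim54 positions are counted from the start site of the promoter entry, just after 31116611. The GENCODE start of Trim54 lies downstream of it, at 31116712. The bases between those starts are not shown, and the search ended at 31116661. The E-boxes at -72 in Trim63 and -113 in Trim54 both have the form CAGCTG, which is counted within CANNTG. Of 32851 promoters searched over the same 300 bases (250 before and 50 after the start site), 3.65% hold GTAAACA, 72.3% hold CANNTG and 16.3% hold CAGCTG. The promoter entries of Foxo1, Foxo3, Fbxo30 and Klf15 hold no GTAAACA, and entries for Fbxo32, Trim55 and Foxo4 were not used here. E-boxes are not particular to Trim63 and Trim54. The Klf15 entry holds 3, at -228, -172 and -3, and the Foxo1 entry holds 1, at -193, none of the form CAGCTG. The entries of Foxo3 and Fbxo30 hold no E-box. A search for the MEF2 motif, held by 3.19% of all promoters, found it in none of the 6 entries.

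Differentiation raised the MuRF1 and MuRF3 genes in both genotypes, whereas the KO line held the MuRF genes, Foxo1 and, in myoblasts, atrogin-1 at lower levels. In WT cells, 3 members rose in myotubes (Foxo4, Trim63 and Trim54) and none fell. Over all 10767 genes tested, 23.0% were called in this comparison, 13.8% as higher and 9.16% as lower. Of those calls 60.1% were higher, and 49.7% after quantile normalization. In KO cells, 5 members rose (Foxo1, Foxo3, Fbxo32, Trim63 and Trim54) and none fell, where 33.4% of all genes were called and 17.3% rose. In KO against WT myoblasts, 5 members were lower (Foxo1, Fbxo32, Trim63, Trim55 and Trim54) and none higher, where 15.8% of all genes were called and 8.50% were lower and 7.26% higher. In KO against WT myotubes, 5 were lower (Foxo1, Foxo4, Trim63, Trim55 and Trim54) and none higher, where 23.4% of all genes were called and 13.7% were lower and 9.74% higher. The difference between the changes on differentiation in the 2 genotypes, the interaction, passed the test for 1 member, Fbxo32, where 3.45% of all genes were called and 1.97% had the more positive change in KO cells. A call is a limma adjusted p under 0.05, taken over all genes tested. Trim63, Trim55 and Trim54 passed the limit for testing through the groups in which they were high, so these counts are a description of the 8 members tested. The 4 pairwise comparisons share samples with each other, each group serving in 2 of them.

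**Figure D1:**
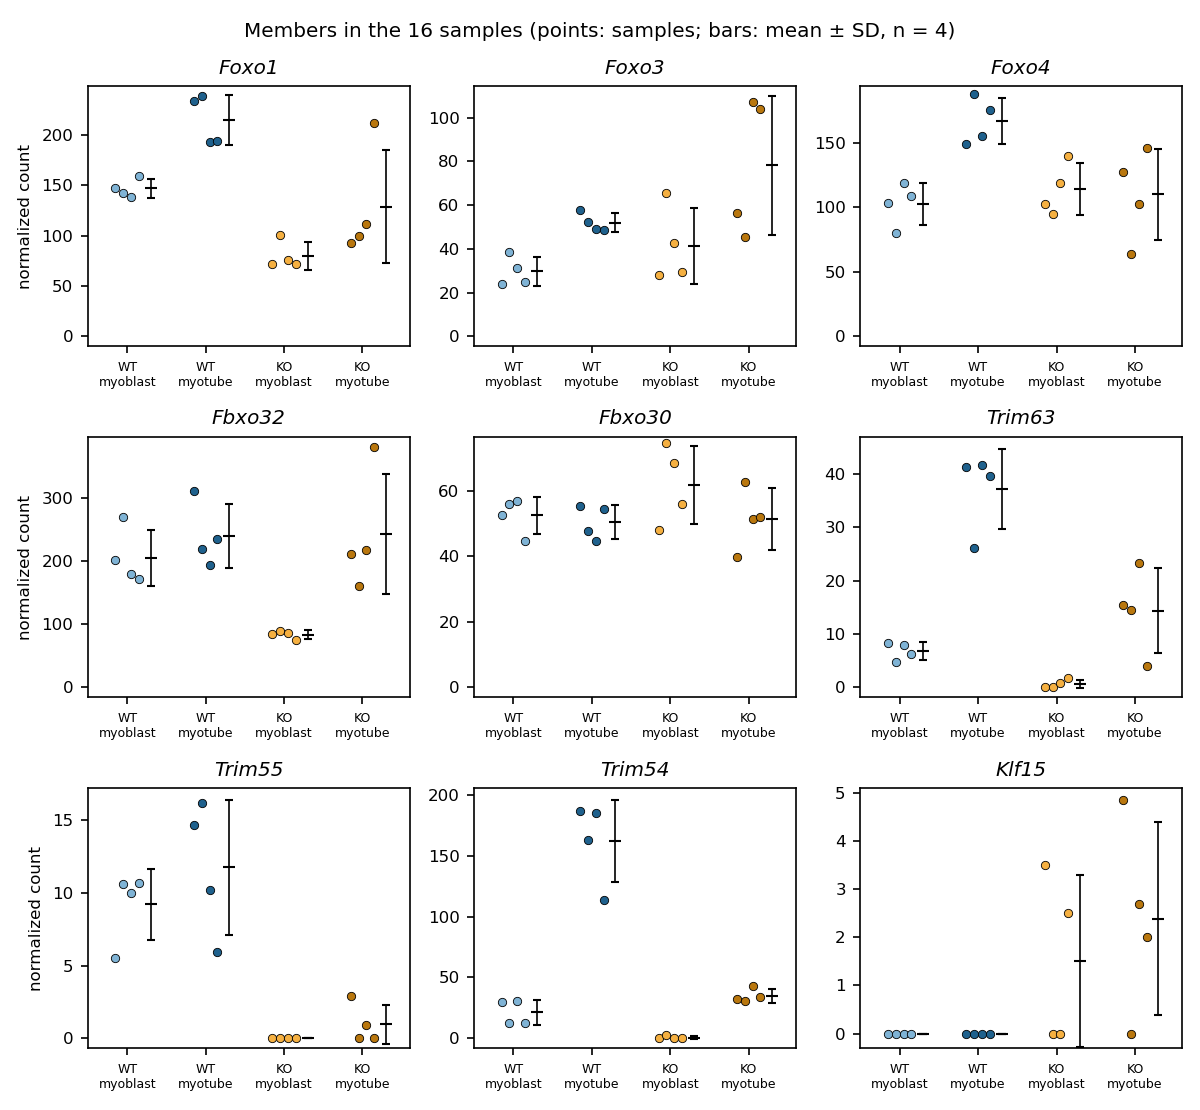
Normalized counts of the 9 members (vertical axes, linear, a scale of its own for each gene) in the 4 groups, with 1 point per sample and the mean ± SD of 4 samples beside it. Trim63 and Trim54 are highest in WT myotubes, Trim55 is at 0 in all 4 KO myoblast samples, Fbxo32 is lowest in KO myoblasts and Klf15 is at 0 in the 8 WT samples.

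**Figure D2:**
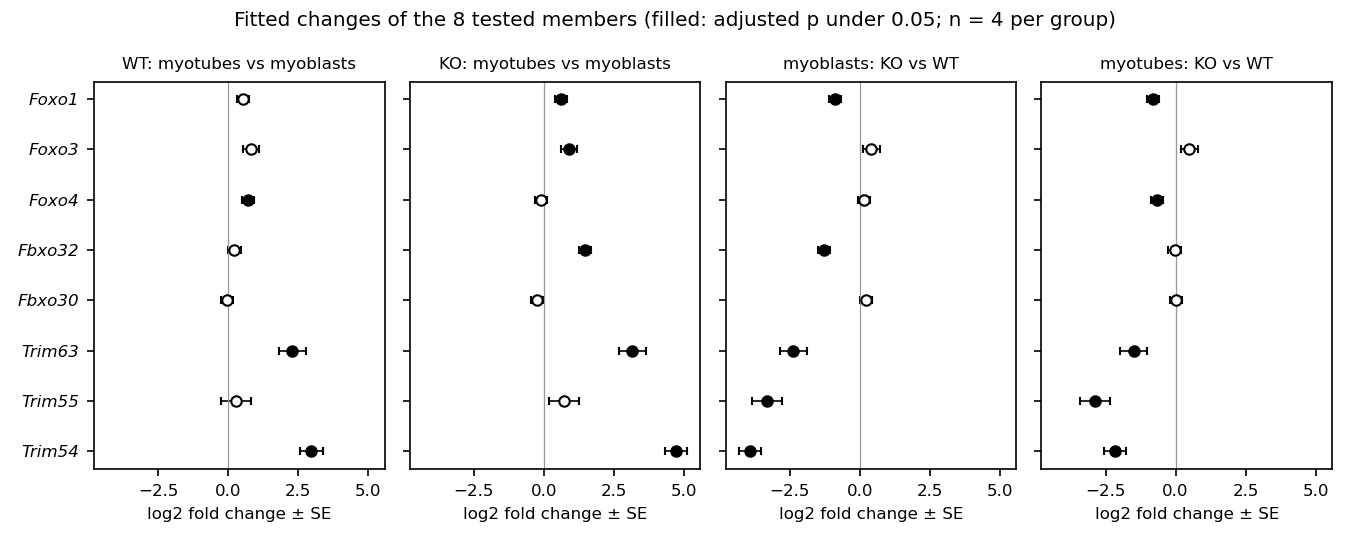
Fitted log2 fold changes ± SE of the 8 tested members in the 4 pairwise comparisons, from 4 samples a group, with filled points for a limma adjusted p under 0.05. The filled points all lie to the right of 0 in the 2 differentiation comparisons and to the left of 0 in the 2 comparisons of KO with WT.

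Among the FoxO factors, Foxo1 was lower in KO than in WT cells both before and after differentiation. Foxo1, which drives the atrophy programme and restrains myoblast differentiation, gave 148, 143, 138 and 159.5 normalized counts in WT myoblast replicates 1 to 4, and 234, 239, 193 and 194 in WT myotubes. It gave 71.7, 100.4, 75.5 and 71.7 in KO myoblasts and 92.9, 99.2, 111.6 and 211.8 in KO myotubes. All KO myoblast samples lay below all WT myoblast samples, and 3 of 4 KO myotube samples lay below all WT myotube samples, while replicate 4, the shallowest library, lay among them. The difference of KO from WT was -0.89 (SE 0.21, limma adjusted p = 0.00584) in myoblasts and -0.81 (SE 0.21, limma adjusted p = 0.00903) in myotubes, on the log2 scale. Without KO myotube replicates 2 and 4 it was -1.06 in myotubes (limma adjusted p = 6.82e-04).

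The change of Foxo1 on differentiation passed the test in KO cells and missed it in WT cells, and the difference between those changes was 0.07 (95% interval -0.56 to 0.70). In WT cells the log2 difference of myotubes from myoblasts was 0.54 (SE 0.21, limma adjusted p = 0.0737), with no overlap between the groups, 1 of 5 members without overlap here where 28.0% of all genes had none. It passed the test without KO myotube replicate 4 (limma adjusted p = 0.0177) and without replicates 2 and 4 (limma adjusted p = 0.0151), which change only the shared estimate of the spread. In KO cells the rise was 0.61 (SE 0.21, limma adjusted p = 0.0318), and the groups overlapped. The change was 0.35 without KO myotube replicate 4 (limma adjusted p = 0.127) and 0.36 without replicates 2 and 4 (limma adjusted p = 0.171), and the call was also lost without KO myoblast replicate 1, 3 or 4, at 0.57, 0.59 and 0.57. With only the 8 samples compared, the WT change was called (limma adjusted p = 0.0148) and the KO change was not (limma adjusted p = 0.110), nor was the KO change after quantile normalization (limma adjusted p = 0.0585), and the WT change was called with sample weights and with voom.

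Foxo3, the FoxO factor best known for raising atrogin-1 and autophagy genes, had few reads in every group, and its spread was wide in the KO line. It gave 24.0, 38.6, 31.02 and 24.9 normalized counts in WT myoblasts and 57.8, 52.2, 49.3 and 48.5 in WT myotubes. In the KO line it gave 28.0, 65.6, 42.5 and 29.2 in myoblasts and 56.1, 45.2, 107.1 and 103.9 in myotubes. The WT groups were apart and the KO groups overlapped, KO myotube replicates 3 and 4 being the highest of all 16 samples.

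On differentiation the log2 change of Foxo3 was 0.81 (SE 0.30, limma adjusted p = 0.0565) in WT cells and 0.89 (SE 0.30, limma adjusted p = 0.0271) in KO cells, so that the KO change alone passed the test. The difference between those changes was 0.08, with a 95% interval from -0.81 to 0.96. The KO call was lost without KO myoblast replicate 1 (0.74) or 4 (0.76) and without KO myotube replicate 3 (0.71) or 4 (0.72). The WT change passed without WT myoblast replicate 2 (0.94), and without KO myoblast replicate 2, KO myotube replicate 2 or KO myotube replicate 4 at an unchanged 0.81, and without KO myotube replicates 2 and 4 together (limma adjusted p = 0.0271). With only the 8 samples compared, the WT change was called (limma adjusted p = 0.0108) and the KO change was not (limma adjusted p = 0.0848), and the WT change was called with sample weights (limma adjusted p = 0.00562). KO and WT differed by 0.41 in myoblasts (95% interval -0.22 to 1.03) and by 0.49 in myotubes (95% interval -0.14 to 1.11), and neither passed the test.

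Foxo4, a FoxO factor of the same AKT-controlled class, rose in WT cells and was not called in the KO line. It gave 103, 80.0, 119 and 109 normalized counts in WT myoblasts and 149, 188, 155 and 175 in WT myotubes. It gave 102, 94.6, 119 and 140.2 in KO myoblasts and 128, 64.2, 103 and 146 in KO myotubes. WT myotubes lay above every sample of the other 3 groups, which overlapped one another.

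The log2 rise of Foxo4 in WT cells was 0.70 (SE 0.22, limma adjusted p = 0.0260), against -0.10 (SE 0.22, limma adjusted p = 0.769) in KO cells. The difference between those changes was -0.80 (SE 0.31) with a limma adjusted p of 0.175, so a difference between genotypes in the response was not shown. KO myotubes stood below WT myotubes at a log2 difference of -0.65 (SE 0.22, limma adjusted p = 0.0362), and KO and WT myoblasts differed by 0.15 (limma adjusted p = 0.734). The WT rise lost its call without WT myoblast replicate 2 (0.59), WT myotube replicate 2 (0.64) or WT myotube replicate 4 (0.68). The lower level in KO myotubes lost its call without WT myotube replicate 2, 3 or 4 (-0.59, -0.69 and -0.63) and without KO myotube replicate 2 (-0.42) or 3 (-0.64), and without KO myotube replicates 2 and 4 together (-0.53, limma adjusted p = 0.0831). It was also lost with only the 8 samples compared (limma adjusted p = 0.102).

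Of the F-box genes, Fbxo32 was lowest in KO myoblasts and reached the WT range in KO myotubes. Fbxo32 encodes atrogin-1, the substrate-binding subunit of an SCF ligase, which acts on MyoD and eIF3f among other proteins. It gave 201, 270.0, 180.1 and 172 normalized counts in WT myoblasts and 312, 219.5, 194 and 235 in WT myotubes. It gave 84.9, 89.65, 85.9 and 74.25 in KO myoblasts and 212, 160.5, 219 and 382 in KO myotubes. The 4 KO myoblast samples lay close together and below all 12 others, which overlapped.

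KO myoblasts held Fbxo32 at a log2 difference of -1.27 from WT myoblasts (SE 0.22, limma adjusted p = 2.53e-04), or 83.7 ± 6.61 against 206 ± 44.5 normalized counts (SD, n = 4). This is 1 of 5 members without overlap between these groups, where 26.8% of all genes had none. On differentiation Fbxo32 rose by 1.46 in KO cells (SE 0.22, limma adjusted p = 3.39e-05), 1 of 3 members without overlap where 27.4% of all genes had none, against 0.22 in WT cells (SE 0.22, limma adjusted p = 0.508). The difference between the changes was 1.24 (SE 0.31, 95% interval 0.58 to 1.89, limma adjusted p = 0.0308). KO and WT myotubes differed by -0.03, with a 95% interval from -0.49 to 0.43.

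The interaction of Fbxo32 kept its sign with every library left out, and its call was lost in 7 of the 16 cases. Those were WT myoblast replicate 1 or 2, WT myotube replicate 3 or 4 and KO myoblast replicate 1, 3 or 4, with limma adjusted p values of 0.0535 to 0.0808. Without the shallow KO myotube replicates 2 and 4 it was 1.14 (limma adjusted p = 0.0225).

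**Figure D3:**
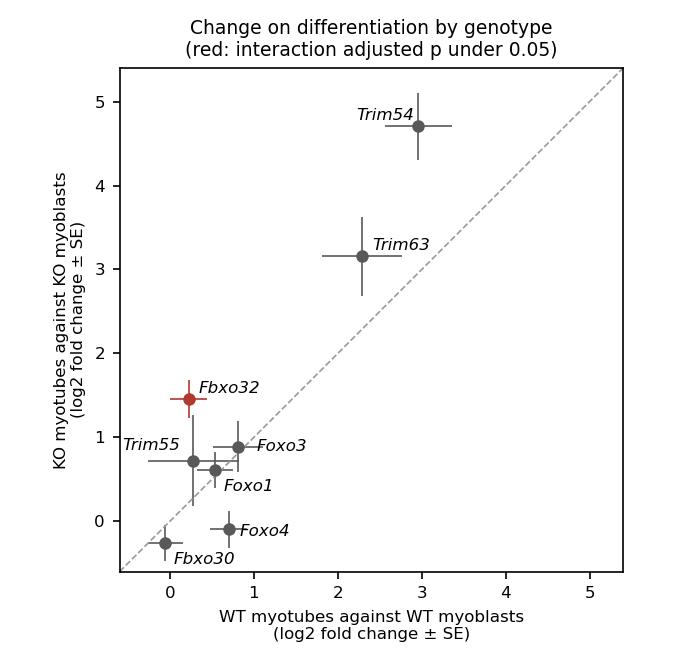
Log2 fold change ± SE of each tested member on differentiation in WT cells (horizontal axis) and in KO cells (vertical axis), 4 samples a group, with the dashed line marking equal change. Fbxo32, in red, lies above the line at 0.22 and 1.46, and Trim54 at 2.96 and 4.70 and Trim63 at 2.29 and 3.16 also lie above it without passing the test of the difference.

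Fbxo30 encodes MUSA1, an F-box ligase gene of denervated muscle, and was called in none of the comparisons. Its normalized counts ran from 44.6 to 57.0 before and 44.6 to 55.3 after differentiation in the WT line, and from 48.1 to 74.7 and 39.7 to 62.7 in the KO line. All 4 groups overlapped. Its log2 differences ran from -0.26 (KO differentiation, 95% interval -0.70 to 0.18) to 0.22 (KO against WT myoblasts, 95% interval -0.22 to 0.65), and none passed the test. For KO against WT myotubes the interval was -0.43 to 0.45, which leaves changes of up to that size undetected.

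The MuRF genes carried the largest differences of the set. Trim63 encodes MuRF1, the ligase of myosin heavy chain and other thick-filament proteins. It gave 8.30, 4.82, 8.01 and 6.24 normalized counts in WT myoblasts and 41.4, 26.1, 41.8 and 39.6 in WT myotubes. It gave 0, 0, 0.868 and 1.67 in KO myoblasts, which is 3 reads in all, and 15.5, 14.6, 23.4 and 4.00 in KO myotubes. No WT group overlapped its KO counterpart, and no myoblast group overlapped the myotubes of its genotype, although KO myotube replicate 4, with 2 reads, lay below the WT myoblast samples.

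On differentiation Trim63 rose by 2.29 on the log2 scale in WT cells (SE 0.47, limma adjusted p = 0.00147), from 6.84 ± 1.63 to 37.2 ± 7.50 normalized counts (SD, n = 4). In KO cells it rose by 3.16 (SE 0.47, limma adjusted p = 2.80e-05), to 14.4 ± 7.96. From the summed reads per unit of depth the KO rise was 25.4-fold, with an exact 95% counting interval from 8.24 to 127. The difference between the changes was 0.87 (SE 0.67, limma adjusted p = 0.536), and fitted changes of so few reads depend on the pseudocount.

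KO myoblasts stood below WT myoblasts in Trim63 by a fitted -2.37 (SE 0.47, limma adjusted p = 0.00103), a 10.7-fold ratio of summed reads with an exact 95% counting interval from 3.32 to 54.9. KO myotubes stood below WT myotubes by -1.50 (SE 0.47, limma adjusted p = 0.0256), 1 of 4 members without overlap where 19.4% of all genes had none. That call was lost without WT myotube replicate 1 (-1.44), 3 (-1.44) or 4 (-1.46), without KO myotube replicate 4 (-1.03, limma adjusted p = 0.0886) and without KO myotube replicates 2 and 4 together (-0.91, limma adjusted p = 0.171). A pseudocount of 0.5 (-1.55, limma adjusted p = 0.0512) and sample weights (-1.28, limma adjusted p = 0.0633) also ended it. The lowest WT myotube sample was 26.1, and the highest KO myotube sample was 23.4.

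Trim54 encodes MuRF3, which stabilises microtubules and acts on FHL2 and filamin C, and it had the largest change of the members. It gave 29.5, 12.5, 31.02 and 12.5 normalized counts in WT myoblasts and 186.5, 163, 185 and 114 in WT myotubes. In KO myoblasts it had 3 reads, all in replicate 2 (2.49 normalized counts), and in KO myotubes it gave 31.9, 30.6, 43.2 and 34.0. The 4 groups were ordered WT myotubes, KO myotubes, WT myoblasts, KO myoblasts, and only the middle pair overlapped.

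Trim54 rose by 2.96 on differentiation in WT cells (SE 0.40, limma adjusted p = 1.85e-05), from 21.4 ± 10.3 to 162 ± 33.9 normalized counts. In KO cells it rose by a fitted 4.70 (SE 0.40, limma adjusted p = 1.41e-08), a 56.0-fold ratio of summed reads with an exact 95% counting interval from 18.7 to 275.3. KO myoblasts stood 33.2-fold below WT myoblasts by summed reads (exact 95% counting interval 11.0 to 164.2), at a fitted -3.91 (SE 0.40, limma adjusted p = 2.48e-07). KO myotubes, at 34.9 ± 5.67, stood below WT myotubes by -2.17 (SE 0.40, limma adjusted p = 5.33e-04). The difference between the changes was 1.74 (SE 0.57, limma adjusted p = 0.104). It passed without KO myoblast replicate 2, the sample with the 3 reads, at 2.19 (limma adjusted p = 0.0106). That setting leaves no read in KO myoblasts. The difference also passed with sample weights (2.50, limma adjusted p = 0.00321). It was 0.12 with a pseudocount of 5 and 2.68 with voom, neither called, so its size depends on the pseudocount.

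Trim55 encodes MuRF2, a titin-associated ligase of early sarcomere assembly, and was lower in the KO line both before and after differentiation. It gave 5.54, 10.6, 10.0 and 10.7 normalized counts in WT myoblasts and 14.7, 16.2, 10.2 and 5.94 in WT myotubes. No read was counted in any KO myoblast sample, and KO myotubes had 4 reads, 3 in replicate 1 and 1 in replicate 3. Every WT sample lay above every KO sample.

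KO myoblasts stood below WT myoblasts in Trim55 by a fitted -3.31 (SE 0.54, limma adjusted p = 1.21e-04). With 3 reads per library as the floor, they were at least 3.61-fold lower, a bound that was not itself tested. KO myotubes were 9.94-fold lower by summed reads (exact 95% counting interval 3.66 to 37.9), at a fitted -2.87 (SE 0.54, limma adjusted p = 6.22e-04). In WT cells the change on differentiation was 0.28 (SE 0.54, limma adjusted p = 0.762), with a 95% interval from -0.85 to 1.40. In KO cells both groups were at or under the floor, so no fold is given. The fitted KO change had a limma adjusted p of 0.321, and it passed the test without KO myotube replicates 2 and 4 (0.0414), which leaves the 4 reads of replicates 1 and 3 against none.

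Trim63 and Trim54 were ordered over the 4 groups as the muscle differentiation markers were, except that WT myoblasts and KO myotubes overlapped in both genes. KO myoblasts had marker sums of 124 to 189 against 1940.1 to 2905 in WT myoblasts, and KO myotubes had 10807 to 14607 against 23636 to 35505 in WT myotubes. Trim55 departed from that order, since KO myotubes, with marker sums above those of WT myoblasts, had 0.951 ± 1.37 normalized counts of Trim55 against 9.21 ± 2.47 there (SD, n = 4). Fbxo32 departed from it as well, with 243 ± 95.9 in KO myotubes and 240 ± 50.6 in WT myotubes at different marker sums. The part of differentiation in the differences of the members was not tested.

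**Figure D4:**
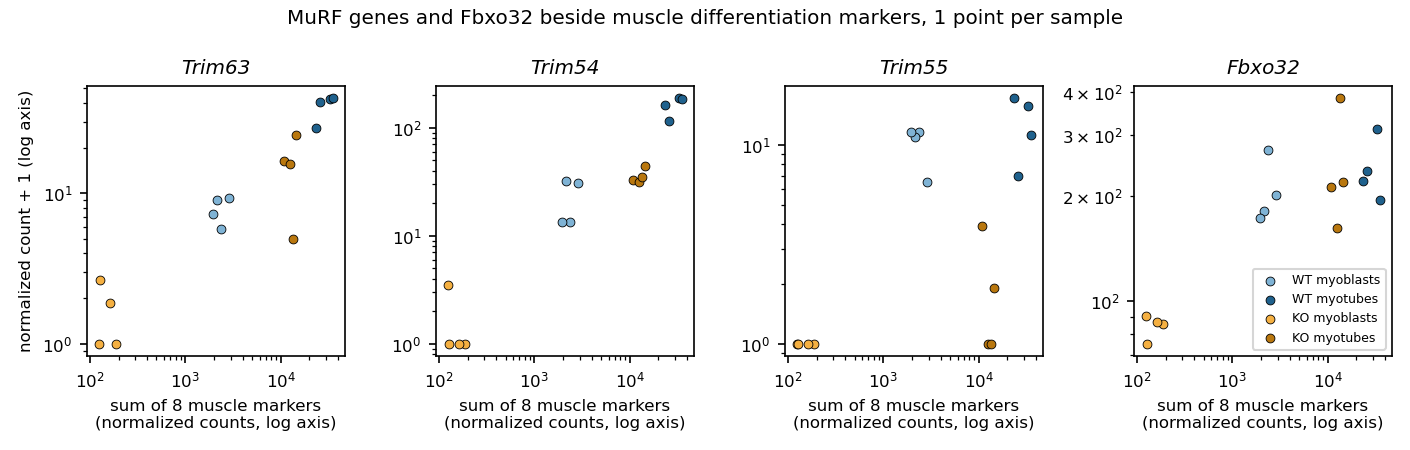
Normalized count + 1 of Trim63, Trim54, Trim55 and Fbxo32 (vertical axes, log scale) against the sum of the 8 muscle differentiation markers (horizontal axes, log scale), with 1 point per sample coloured by group. KO myotubes, at sums of 10807 to 14607, lie to the right of WT myoblasts, yet their Trim55 points lie below those of WT myoblasts.

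Klf15, the gene of the glucocorticoid-induced factor of amino acid catabolism, was near the limit of detection. It had no read in any of the 8 WT samples, 7 reads over KO myoblasts (4 in replicate 1 and 3 in replicate 4) and 9 over KO myotubes (5, 3 and 1 in replicates 1, 3 and 4). Most samples lay at or under the 3-read floor, which was 2.49 to 5.995 normalized counts per library, and every pair of groups overlapped at 0. In a 2-sided exact permutation test, whose smallest p with 4 samples a group is 0.0286, the p was 0.429 for KO against WT myoblasts, 0.143 for KO against WT myotubes and 0.571 for KO myotubes against KO myoblasts. In limma without the limit on low values, over 17641 genes, Klf15 was called in KO against WT myotubes (log2 difference 1.504, SE 0.48, limma adjusted p = 0.0390) and in no other comparison, so that 6 members were called there. The call rests on 9 reads in KO myotubes, and no fold is given.

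The other genes of the pathway were read from lists chosen by function, and their calls are set beside those over all genes, which were 23.0% on WT differentiation, 33.4% on KO differentiation, 15.8% between KO and WT myoblasts and 23.4% between KO and WT myotubes. Shares of a list are given in that order. Of 13 tested FoxO co-regulators, 2 rose and 1 fell on WT differentiation, 3 rose and 2 fell on KO differentiation, none was called between KO and WT myoblasts, and 1 was higher and 1 lower in KO myotubes. These are 23.1%, 38.5%, 0% and 15.4% of the co-regulators, the first being the share over all genes. Foxo6, the remaining FoxO factor, rose by 1.85 in WT cells (SE 0.30, limma adjusted p = 1.34e-04) and by 1.48 in KO cells (SE 0.30, limma adjusted p = 6.70e-04). Skp2, the F-box subunit that degrades FOXO1, fell by 0.69 in WT differentiation (limma adjusted p = 0.0180). Mdm2, another ligase of FoxO proteins, was 0.58 higher in KO than in WT myotubes (limma adjusted p = 0.0376).

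Upstream of FoxO, the 23 tested genes of insulin, IGF and PI3K to AKT signalling held large changes of the growth factor genes. In WT differentiation 4 rose and 2 fell (median log2 change 0.17 against -0.01 over all genes), and in KO differentiation 7 rose and 1 fell (median 0.34 against -0.02). The shares called were 26.1%, 34.8%, 21.7% and 30.4%, each within 10 percentage points of all genes. Igf2, the autocrine growth factor of myoblast differentiation, rose in WT cells from 25.7 ± 4.78 to 277 ± 91.6 normalized counts (limma adjusted p = 5.47e-08), while KO myoblasts had at most 1 read per library and KO myotubes had 68.7 ± 15.3. Igf1, its homologue, was 18.7 ± 3.24 in WT myotubes and 129 ± 23.6 in KO myotubes, a log2 difference of 2.72 (SE 0.30, limma adjusted p = 1.71e-06). Pik3r1, the regulatory subunit of PI3K, was 1.26 higher in KO than in WT myotubes (SE 0.18, limma adjusted p = 3.53e-05). Sgk1, a kinase that phosphorylates FOXO3, was 1.16 higher in KO than in WT myoblasts (SE 0.20, limma adjusted p = 2.53e-04).

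Known FoxO target genes outside the ligases moved in both directions. Of 28 tested, 10 rose and 3 fell in WT differentiation, and 10 rose and 5 fell in KO differentiation. In KO against WT, 6 were higher and 4 lower in myoblasts, and 6 higher and 3 lower in myotubes, with medians of 0.08 and 0.14 against -0.01 and -0.07 over all genes. The shares called were 46.4%, 53.6%, 35.7% and 32.1%, each above that of all genes. Bnip3, a mitophagy receptor, rose on differentiation by 2.10 in WT (SE 0.25, limma adjusted p = 2.99e-06) and by 1.77 in KO cells (SE 0.25, limma adjusted p = 1.31e-05). Pdk4, the kinase that shuts pyruvate dehydrogenase, fell on differentiation from 19.0 ± 6.41 to 2.06 ± 2.35 normalized counts in WT cells and from 24.4 ± 7.04 to 2.47 ± 4.95 in KO cells. Txnip, an inhibitor of glucose uptake, averaged 69.5 normalized counts in KO myoblasts against 6.72 in WT myoblasts, a log2 difference of 3.20 (SE 0.52, limma adjusted p = 1.04e-04). Klf9 was lower in the KO line, at log2 differences of -1.28 in myoblasts and -0.89 in myotubes and limma adjusted p values of 6.96e-04 and 0.0121, whereas Sesn1, a stress-induced inhibitor of mTORC1, was 1.13 higher in KO myotubes (limma adjusted p = 2.68e-04).

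Other ubiquitin ligase genes of muscle included both higher and lower genes, as all genes did. Of 20 tested, 5 rose and 1 fell in WT differentiation, 4 rose and 2 fell in KO differentiation, 3 were higher and 3 lower in KO myoblasts, and 3 higher and 4 lower in KO myotubes. That is 30.0% in each of the first 3 comparisons and 7 of 20 in the fourth, below the share of all genes on KO differentiation and above it in the others. Klhl40 and Klhl41, Cullin-3 adaptors of the sarcomere, averaged 90.5 ± 9.22 and 25.1 ± 5.43 normalized counts in WT myoblasts and had at most 3 reads per KO myoblast library. Fbxl22, an F-box gene of striated muscle, was 162 ± 55.3 in WT and 30.4 ± 4.25 in KO myotubes, a log2 difference of -2.31 (SE 0.40, limma adjusted p = 2.61e-04). Fbxo21 was 0.96 higher in KO than in WT myotubes (SE 0.28, limma adjusted p = 0.0152).

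The machinery shared by SCF ligases, E2 enzymes and deubiquitinases changed in few of its 19 tested genes, with 2, 2, 1 and 2 called in the 4 pairwise comparisons, or 10.5%, 10.5%, 5.26% and 10.5%, below the shares of all genes. Cul1, the scaffold that holds atrogin-1 and MUSA1, was 580 ± 86.2 normalized counts in KO myotubes against 283 ± 45.8 in WT myotubes (log2 difference 1.03, SE 0.17, limma adjusted p = 1.51e-04). Ube2d1, an E2 enzyme, was lower in the KO line, at log2 differences of -0.53 in myoblasts and -0.78 in myotubes and limma adjusted p values of 0.0449 and 0.00296.

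Substrates and sarcomere partners of the ligases mostly rose on differentiation and were mostly lower in the KO line. Of 11 tested, 9 rose in WT differentiation (median 2.67) and 10 in KO differentiation (median 5.68, or 4.83 with genes that had no read in 1 group placed at their bound), and none fell. KO myoblasts were lower in 7 and higher in 1 (median -2.63, or -1.97 at the bound), and KO myotubes were lower in 6 and higher in 1 (median -1.18). The medians over all genes were -0.01, -0.02, -0.01 and -0.07 in the same order. Ckm, muscle creatine kinase and a substrate of MuRF1, was 64.4 ± 26.5 in WT myoblasts, 1266 ± 229 in WT myotubes and 321 ± 54.0 in KO myotubes, with at most 1 read per KO myoblast library. Some of these genes are also among the muscle differentiation markers.

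The inputs that meet FoxO at the ligase genes gave smaller counts. Of 15 NF-kB and cytokine genes, 4 rose in WT and 6 in KO differentiation, 2 were higher in KO myoblasts and 3 in KO myotubes, and none was lower in any of the 4. The shares called were 26.7%, 40.0%, 13.3% and 20.0%, above those of all genes on differentiation and below them between genotypes. Nfkbia, the NF-kB inhibitor that NF-kB itself induces, was 465 ± 79.0 in KO and 188 ± 34.0 in WT myotubes (log2 difference 1.30, SE 0.20, limma adjusted p = 9.31e-05). Of 10 glucocorticoid receptor genes and targets, Errfi1, a feedback inhibitor of the EGF receptor, was 45.3 ± 2.93 in KO and 199 ± 28.0 in WT myoblasts (log2 difference -2.10, SE 0.20, limma adjusted p = 6.76e-08). Tsc22d3, the GILZ gene, was 0.69 higher in KO myoblasts (SE 0.18, limma adjusted p = 0.00851), so the list moved in both directions there, with 2 higher and 1 lower. The shares of this list called were 20.0%, 20.0%, 30.0% and 20.0%, above that of all genes between KO and WT myoblasts and below it in the others.

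Genes linked to KLF15 were also mixed, with 3 of 11 higher and 2 lower in KO myoblasts, and 2 higher and 4 lower in KO myotubes. The shares called were 18.2%, 27.3%, 45.5% and 54.5%, below those of all genes on differentiation and above them between genotypes. The genes called in KO myoblasts include other Krüppel-like factor genes, Klf4 as higher and Klf5 and Klf9 as lower. Some genes are counted in more than 1 list, as Klf9 is here and among the FoxO targets. Sgk1 is likewise in both the insulin and the glucocorticoid list. Klf5, a Krüppel-like factor of muscle differentiation, was 215 ± 16.4 in KO and 822 ± 139 in WT myoblasts, and 313 ± 78.2 in KO and 952 ± 196 in WT myotubes. Those are log2 differences of -1.91 and -1.62 (SE 0.19 each, limma adjusted p = 1.91e-07 and 5.19e-06). Of the 8 tested genes of the BMP branch that restrains Fbxo30, none was called between KO and WT, and Bmpr2, a BMP receptor, rose on differentiation by 0.91 in WT and 0.82 in KO cells (SE 0.19 each, limma adjusted p = 0.00148 and 0.00218).

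**Figure D5:**
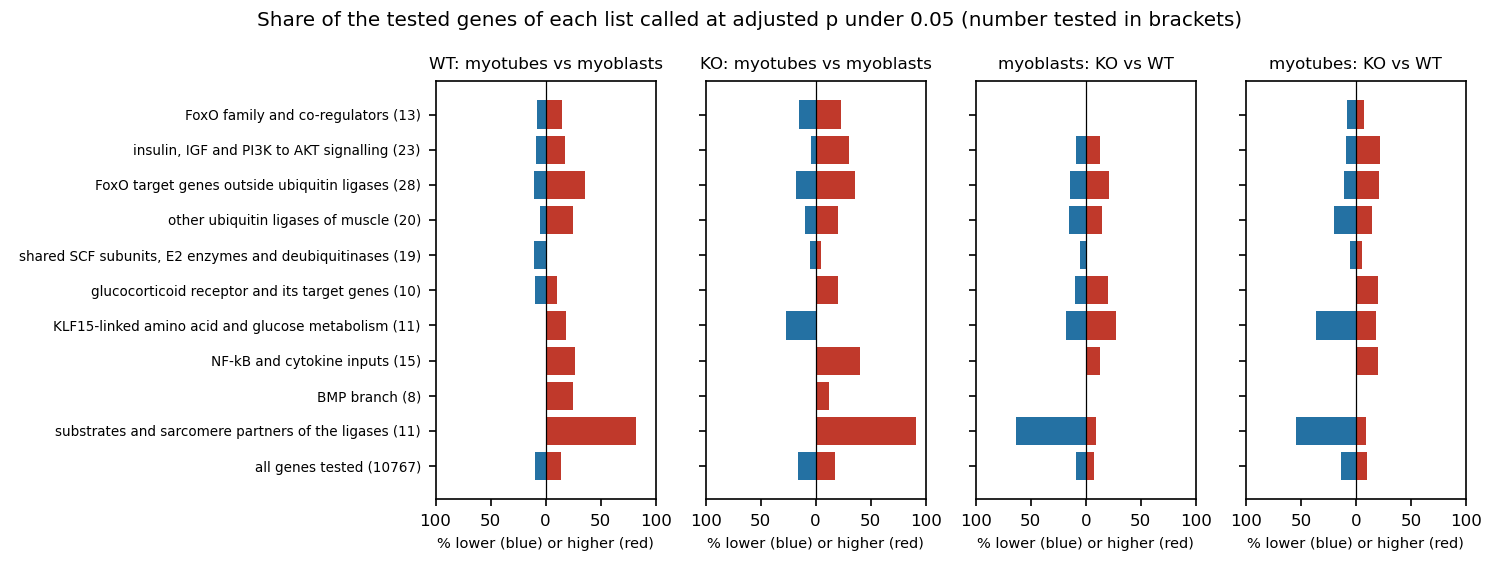
Percent of the tested genes of each list called higher (red, to the right) or lower (blue, to the left) at a limma adjusted p under 0.05 in the 4 pairwise comparisons, with all 10767 genes in the bottom row. Substrates and sarcomere partners reach 81.8% and 90.9% higher on differentiation and 63.6% and 54.5% lower in KO myoblasts and myotubes, against 13.8%, 17.3%, 8.50% and 13.7% of all genes.

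Over the 16 samples, the genes whose centred log2 values lay closest to each called member were found by the root mean square difference. Trim54 lay closest to Igf2 (0.57), Klhl31 (0.64) and Ppfia4 (0.68), against an SD of 2.62 of Trim54 itself. Trim63 lay closest to Npnt (0.58), Tcap (0.59) and Cdh15 (0.61), and Trim55 to Arhgef26 (0.52), Lmbr1 (0.56) and Tpd52l1 (0.60). Fbxo32 lay closest to 2010111I01Rik (0.31), Bves (0.32) and Popdc3 (0.32), against an SD of 0.70. Foxo1 lay closest to Ehbp1l1 (0.27), Tpm1 and Chchd1, Foxo3 to Mcu (0.30), Epm2aip1 and Smim4, and Foxo4 to Fkbp1b (0.24), Ddrgk1 and Fam195a. The samples share group and depth, so this is a description of level patterns.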

How the data were processed

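Per the labels and the study's methods, a 3′-end digital mRNA kit turned total RNA into libraries, which were sequenced as single reads of 100 cycles. The authors trimmed the reads, aligned them to mm10 with STAR 2.6.0a and counted them per gene with HTSeq. The deposited values are log2(normalized count + 1). The normalization tool and whether strand was used are not given in the sources used here. Undoing the log2 step gave whole reads for 100% of values, within 0.01 of a read, and so the depth of each sample.

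Groups were taken from sample titles. Labels call the samples biological replicates without naming separate cultures, so p-values measure the spread between these samples, which may be technical. The deposited log2 values were tested in limma 3.58.1 (R 4.3.3, trended variance) with 1 mean per group over all 16 samples, for the 10767 genes that reached a normalized count of 10 in 4 or more samples, and p was adjusted by the Benjamini-Hochberg method over all of them. Fold changes are on the log2(value + 1) scale, which understates changes of low genes. Genes with a group at 3 reads or fewer were also given as ratios of summed reads with exact counting intervals, which cover counting error only. The pipeline was tested on simulated data.

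The members and lists were chosen with earlier results of these data known. Named outside the set are Fam134b and muscle markers, up to 3 called genes without overlap of largest change per list and comparison, and the 3 genes closest to each called member. Alternatives covered pseudocounts, filters, scalings, sample weights, voom on recovered reads, thresholds, a replicate block and leaving out each sample, and, chosen after seeing the data, leaving out KO myotube replicates 2 and 4.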

Additional observations from a re-analysis of the deposited data

Results flagged for a closer look

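Of 33 groups of member values with any spread, 4 held a sample that stood apart by Dixon's test at its 95% critical value, which chance gives in about 1 in 20 groups. Foxo1 was highest in KO myoblasts at 100.4 normalized counts in replicate 2, where the others gave 71.7 to 75.5. Trim63 was lowest in WT myotubes at 26.09 in replicate 2, where the others gave 39.6 to 41.8. Trim55 was lowest in WT myoblasts at 5.536 in replicate 1, where the others gave 10.0 to 10.7. Trim54 was highest in KO myoblasts at 2.49 in replicate 2, which is 3 reads where the others had none.

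The change of Fbxo32 on differentiation differed between the genotypes, being larger in KO than in WT cells by 1.235 on the log2 scale (SE 0.31, limma adjusted p = 0.0308). All 4 KO myotube samples lay above all 4 KO myoblast samples, where 27.4% of all genes had no overlap, and the WT groups overlapped. The call of the interaction was lost in 7 of the 16 cases with 1 sample left out, and at an adjusted p under 0.01.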

How the results depend on the processing

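Of 1230 values of single members under other settings, 1144 kept their sign and their side of the threshold, 48 lost the call, 15 gained it and 23 changed sign. Part of the 1144 could hardly change, so their number is no measure of robustness. Median-ratio scaling gave the same counts of called genes as the main fit. Leaving out a sample outside a pairwise comparison changes only the estimate of the spread. For Klf15, values with a sample left out were compared by sign alone. On WT differentiation, 3 members were called, and 5 with only the 8 samples compared, with sample weights or without KO myotube replicates 2 and 4, and 2 to 5 with each sample left out. On KO differentiation, 5 were called, and 3 with only the 8 samples, at an adjusted p under 0.01 or with a limit of 1 on the size of the log2 change, and 3 to 5 with each sample left out. Between KO and WT myoblasts, 5 were called, and 3 with a minimum of 50, which removes Trim63 and Trim55, and 5 with any sample left out. Between KO and WT myotubes, 5 were called, and 3 with the minimum of 50, the stricter p, the fold limit or without KO myotube replicates 2 and 4, 6 without the limit on low values, where Klf15 is added, and 3 to 5 with each sample left out. The interaction was called for 1, for 2 with sample weights, for 0 at an adjusted p under 0.01 by limma, where 3 members had an unadjusted p under 0.05, and for 0 to 2 with each sample left out. Apart from the minimum of 50 and the stricter thresholds, the cause was not tested.

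The values that changed sign were all uncalled. Trim55 on WT differentiation was -0.074 after quantile normalization and -0.092 with sample weights. Fbxo30 between KO and WT myotubes was -0.064 with sample weights, -0.009 with voom and -0.154 without KO myotube replicates 2 and 4. Without those 2 samples Foxo4 on KO differentiation was 0.022 and the interaction of Foxo1 was -0.180. The interaction of Trim63 was -0.148 with a pseudocount of 5. With each sample left out, Fbxo30 on WT differentiation ran from -0.130 to 0.002, Foxo4 on KO differentiation from -0.253 to 0.138, Fbxo32 between KO and WT myotubes from -0.275 to 0.140, Fbxo30 there from -0.087 to 0.129, and the interactions of Foxo1 and Foxo3 from -0.193 to 0.201 and from -0.103 to 0.325.

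Over all genes, 2474 were called on WT differentiation, against 4683 with sample weights, 1269 at the stricter p, 1259 with the fold limit and 1564 without WT myotube replicate 1. On KO differentiation 3591 became 2216 at the stricter p and 1994 with the fold limit. Between KO and WT myoblasts 1697 became 2656 with only the 8 samples, 3773 with sample weights, 1041 and 1018 with the stricter p and the fold limit. Between KO and WT myotubes 2521 became 1565 with only the 8 samples, 1349 and 1379. For the interaction 371 became 1221 with sample weights, 141 at the stricter p and 231 to 245 without WT myoblast replicate 2, WT myotube replicate 3 or KO myoblast replicate 1 or 4. On average, same-numbered samples did not deviate together (mean correlation 0.03 over 24 pairs, from -0.22 to 0.37, against -0.01 for different numbers). Of the 24 pairs, 10 correlated above 0.1. With the replicate number as a block, 3, 5, 5, 5 and 1 members were called and all 40 values of single members kept their sign and side, so the block changed no call. Genes at a few reads, as Trim63, Trim55, Trim54 and Klf15 in KO myoblasts, limit what this depth can show.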
